A study of Mus musculus with 4 samples.

Results

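A-type potassium channels of the Kv4 family were followed across 5 annotated populations of mouse spiral ganglion neurons, the cells that carry auditory signals from the cochlea to the brainstem. The complexes were taken as a list of 9 genes, which are the pore genes Kcnd1, Kcnd2 and Kcnd3, the KChIP genes Kcnip1, Kcnip2, Kcnip3 and Kcnip4, and the DPP-like genes Dpp6 and Dpp10. All 9 were among the 18143 genes of the count tables, and 8 of them had enough counts to be tested. Kcnd3, with no population above 17 captured molecules, did not pass the low-count filter.

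Kv4 pores open at voltages below the firing threshold and inactivate within a short time, so that the A-type current they carry delays the first spike and spaces later ones. In neurons the pore proteins assemble with KChIPs, cytoplasmic calcium-binding proteins, and with DPP6 or DPP10, single-pass membrane proteins that resemble dipeptidyl peptidases but lack the enzyme activity. Both kinds of partner bring the channel to the cell surface and change how fast it inactivates and recovers.

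The neurons came from 4 wild-type male mice of the inbred CBA/CaJ strain, each 9 weeks old, and the labels name no transgene or treatment. Droplet sequencing (10x Genomics) counted each captured polyadenylated molecule once by its unique molecular identifier (UMI), and each mouse made 1 library. The authors' annotation gives type II neurons (95 cells), which contact outer hair cells, putative neurons (505 cells), and 3 subtypes of the type I class, whose fibres end on inner hair cells: IB (1625 cells), IC (2104 cells) and IA (2384 cells). The annotation was made from the same cells that are compared here, so a gene that helped to separate the populations is not independent of them.

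Libraries held 1238 to 2232 cells and 15151343 to 27309045 UMIs, and 26 cell barcodes occurred in more than 1 library. A level below is a gene's UMIs per 1000000 UMIs (CPM) in the summed cells of 1 population of 1 mouse, given for mice 1 to 4 in that order or as mean ± SD over the 4 mice. Depth limits the smallest population most, since 1 UMI stood for 1.83 to 7.59 CPM in the type II sums and for 0.0985 to 0.261 CPM in the type I sums. The summed type II markers (Prph, Th, Ano2 and Gata3) averaged 934 CPM in type II and 38.8 CPM in putative neurons, with means of 35.9 to 50.3 CPM among type IB, IC and IA. Markers of type IB, IC and IA were each highest in the population that bears the name. The 5 satellite glia markers (Fabp7, Apoe, Sparc, Glul and Ednrb) all had UMIs in every population, and their sum ran from 5711 to 10301 CPM in type II mice and from 7825 to 8740 CPM in putative neurons, against 1088 to 1496 CPM in the type I subtypes.

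Among the type I subtypes, the make-up of the Kv4 transcripts differed in each of the 3 pairs. Type IB had far more Kcnd2 and Dpp10 than type IA, more Kcnip1 and Kcnip2, and less Kcnd1, Dpp6 and Kcnip4. That is 4 of 8 tested members higher and 3 lower at an edgeR adjusted p under 0.05, where 8.19% of all 13005 genes tested were higher and 7.4% lower. In type IC, 3 members (Kcnd2, Kcnip1 and Kcnip2) were higher than in type IA and Kcnd1 was lower, with 16% of all genes higher and 16.3% lower. Between type IB and type IC, Kcnd2 and Dpp10 were higher in type IB and Kcnip1, Kcnip2 and Dpp6 lower, with 6.37% of all genes higher and 5.47% lower. The median log2 difference of the 8 members was 0.14 for type IB minus type IA, 0.25 for type IC minus type IA and -0.16 for type IB minus type IC, against all-gene medians of 0.0044, 0.0068 and -0.0028.

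**Figure D1:**
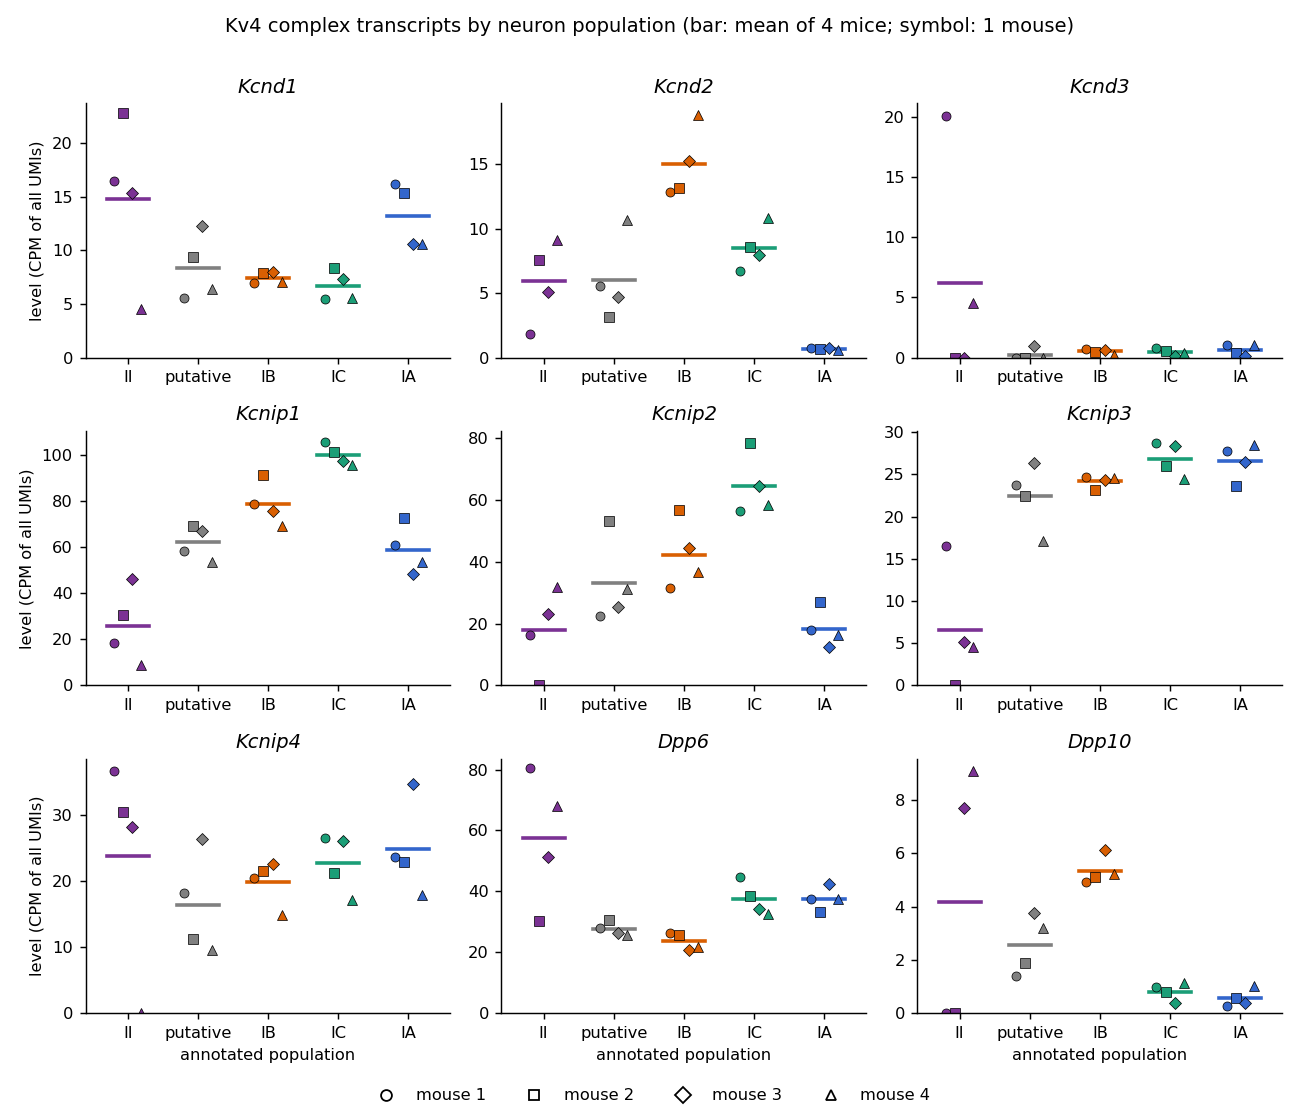
Level of each of the 9 genes in CPM (vertical axis, from 0, scaled per panel) in the 5 annotated populations (horizontal axis). Each symbol is 1 mouse and each bar the mean of 4 mice; Kcnd2 lies between 12.8 and 18.8 CPM in type IB and between 0.625 and 0.754 CPM in type IA, and type II values spread widest in most panels.

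The promoters of the 3 members with the largest differences among the type I subtypes are shown first, because these genes carry the contrast between the subtypes. Each is the RefSeq promoter (GRCm38.p6), from 250 bases before to 50 bases after the start of the transcript, and 8 of the 9 members had an entry (all but Kcnd1). They lie at chr6:21215096-21215395 on the plus strand for Kcnd2, chr1:124045510-124045809 on the minus strand for Dpp10 and chr19:45816014-45816313 on the minus strand for Kcnip2. Capitals mark the GC box GGGCGG, read on both strands, so that the reverse complement is in capitals too.
Kcnd2: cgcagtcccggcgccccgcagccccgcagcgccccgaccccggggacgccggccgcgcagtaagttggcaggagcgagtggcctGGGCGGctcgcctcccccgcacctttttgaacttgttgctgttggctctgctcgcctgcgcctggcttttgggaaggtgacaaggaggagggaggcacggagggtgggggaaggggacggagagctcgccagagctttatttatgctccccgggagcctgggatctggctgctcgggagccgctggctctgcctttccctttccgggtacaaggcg
Dpp10: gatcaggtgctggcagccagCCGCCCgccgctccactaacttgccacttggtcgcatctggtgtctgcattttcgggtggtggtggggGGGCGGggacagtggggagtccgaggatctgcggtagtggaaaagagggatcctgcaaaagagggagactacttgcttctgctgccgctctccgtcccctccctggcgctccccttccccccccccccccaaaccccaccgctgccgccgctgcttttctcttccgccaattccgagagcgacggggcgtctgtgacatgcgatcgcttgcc
Kcnip2: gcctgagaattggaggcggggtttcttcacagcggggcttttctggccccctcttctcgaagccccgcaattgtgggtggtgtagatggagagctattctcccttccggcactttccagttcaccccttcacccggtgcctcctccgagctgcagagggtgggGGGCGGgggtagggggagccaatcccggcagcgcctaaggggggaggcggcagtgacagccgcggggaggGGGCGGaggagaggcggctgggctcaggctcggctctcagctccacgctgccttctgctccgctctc
All 3 are rich in G and C, at 68.7% for Kcnd2, 65% for Dpp10 and 67% for Kcnip2, where the median over 32817 mouse promoters of this length was 52.7%. They held 26, 21 and 18 CpG dinucleotides in the same order, with a median of 7 over all promoters. Promoters of the other members ran from 45.3% and 4 CpG (Kcnip1) to 73.3% and 28 CpG (Kcnip3), so this richness is not particular to the 3 genes. The GC box occurred 1 time for Kcnd2 and 2 times each for Dpp10 and Kcnip2, and 35.6% of all promoters held it. Other letters searched on both strands were TGTGGT (the RUNX core, in 16.8% of all promoters), CAGCTG (an E-box, in 16.3%), TGACGTCA (the cAMP response element, in 1.79%) and ATGCAAAT (the POU octamer, in 1.74%), and these 3 windows held no match to them.

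Kcnd2, a pore gene on chromosome 6 (chr6:21215503-21729805, plus strand, GRCm38), had the widest range among the type I subtypes. It stood at 12.8, 13.1, 15.3 and 18.8 CPM in type IB and at 6.71, 8.61, 7.95 and 10.8 CPM in type IC, against 0.723, 0.689, 0.754 and 0.625 CPM in type IA. In every mouse the order was type IB, then type IC, then type IA, and the 3 groups did not overlap. The fold was 19.8 for type IB over type IA (log2 difference 4.31 ± 0.21, SE; adjusted p = 2.06e-22) and 11.2 for type IC over type IA (3.49 ± 0.23; 7.17e-18). Type IB was 1.77-fold higher than type IC (0.82 ± 0.13; 2.29e-06). With population labels rebuilt without the 9 genes, the log2 differences were smaller but still called, at 2.7 for type IB minus type IA and 2.12 for type IC minus type IA. Those labels were drawn from the authors' labels in the other mice, so they do not free the comparison from the annotation. Thinned cells gave 5.02 and 4.15 in that order, with a Kcnd2 UMI left in just 3 of 2179 type IA cells. Kcnd2 was close to undetected in type IA, with 21 UMIs in 2384 cells, against 317 UMIs in 1625 type IB cells and 247 UMIs in 2104 type IC cells.

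Kcnd1, the pore gene on the X chromosome (chrX:7822289-7838280, plus strand), ran the other way. Type IB mice had 6.99, 7.88, 7.96 and 7.05 CPM and type IC mice 5.46, 8.38, 7.33 and 5.59 CPM, against 16.2, 15.4, 10.6 and 10.6 CPM in type IA. Every type IA mouse lay above every type IB and type IC mouse. Kcnd1 was lower in type IB than in type IA (log2 difference -0.84 ± 0.14; adjusted p = 1.36e-05) and lower in type IC than in type IA (-0.98 ± 0.14; 5.68e-08). Type IB and type IC were not told apart (0.15 ± 0.17; 0.683).

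Kcnd3, the pore gene on chromosome 3 (chr3:105452330-105674002, plus strand), was near its detection limit throughout. It had 12 UMIs in type II, 1 UMI in putative neurons, 12 UMIs in type IB, 14 UMIs in type IC and 17 UMIs in type IA. In type II 11 of the 12 UMIs came from mouse 1 and 5 of them from 1 cell, so that mouse 1 stood at 20.1 CPM and mice 2 and 3 at 0. No test was made of this gene in the fit described here.

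The share of Kcnd2 among the UMIs of the 3 pore genes gives the balance between them within a mouse, and it is read between populations, since each gene may be captured at its own rate. It was 64.9% ± 4.89 in type IB, 54.2% ± 6.95 in type IC and 4.98% ± 1.17 in type IA (SD, n = 4 mice). Type IB exceeded type IA by 59.9 percentage points and type IC exceeded type IA by 49.2 points. Between type IB and type IC the difference was 10.7 points (SD 2.19). All 3 differences had the same sign in 4 of 4 mice, and each gave an exact two-sided sign-flip permutation p of 0.125 (n = 4 mice), the smallest that 4 mice allow.

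**Figure D2:**
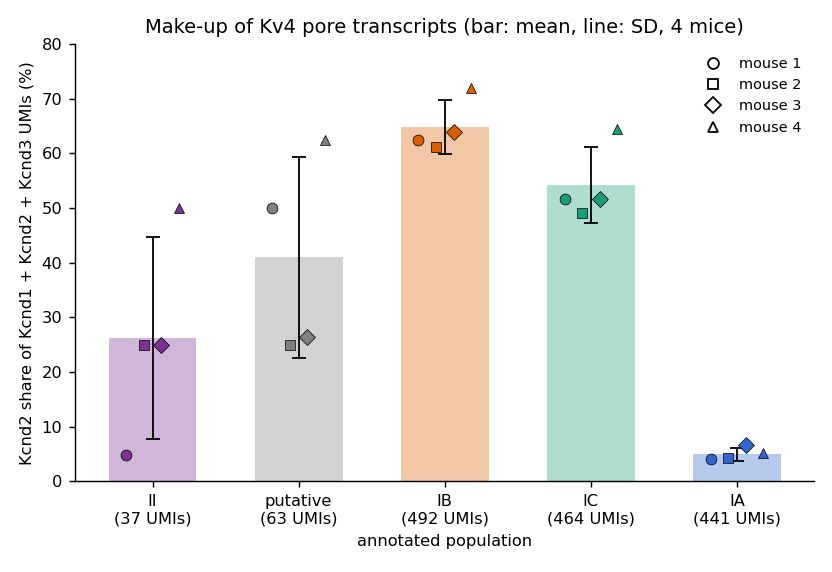
Kcnd2 UMIs as a percentage of Kcnd1, Kcnd2 and Kcnd3 UMIs (vertical axis) in each population (horizontal axis, with the pore UMIs summed over mice). Bars are means, lines SDs and symbols single mice; type IB lies between 61.2% and 72%, and type IA between 4.03% and 6.59%.

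Among the type I subtypes, the KChIP genes Kcnip1 and Kcnip2 were highest in type IC and lowest in type IA, and Kcnip3 and Kcnip4 were nearly level. Kcnip2, on chromosome 19 (chr19:45791839-45816061, minus strand), encodes the KChIP that partners Kv4 pores in heart and brain. It stood at 31.3, 56.6, 44.4 and 36.5 CPM in type IB and at 56.5, 78.2, 64.4 and 58.4 CPM in type IC, against 17.8, 27.1, 12.3 and 16.2 CPM in type IA. Type IA was lowest in every mouse and overlapped neither of the others, while type IC was above type IB within each mouse although their ranges touched. Kcnip2 was 3.44-fold higher in type IC than in type IA (log2 difference 1.78 ± 0.093; adjusted p = 4.09e-22) and 2.28-fold higher in type IB than in type IA (1.19 ± 0.11; 4.26e-13). It was lower in type IB than in type IC (-0.59 ± 0.085; 3.62e-07), a call that did not hold without the mouse as a block (-0.59; 0.0731).

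Kcnip1, on chromosome 11 (chr11:33629339-33993152, minus strand), encodes another calcium-binding KChIP. Type IB mice had 78.7, 91.5, 75.8 and 69.2 CPM and type IC mice 105, 101, 97.2 and 95.5 CPM, against 60.8, 72.8, 48.5 and 53.5 CPM in type IA. Type IC was above both others in each mouse and did not overlap them, whereas type IB and type IA touched. The fold was 1.66 for type IC over type IA (log2 difference 0.73 ± 0.064; adjusted p = 8.37e-14) and 1.33 for type IB over type IA (0.41 ± 0.069; 9.19e-06). Type IB was lower than type IC (-0.32 ± 0.064; 0.000192). This last call was lost without the mouse block (-0.33; 0.134) and with every cell thinned to one depth (-0.21; 0.164).

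Kcnip3, on chromosome 2 (chr2:127456498-127522094, minus strand), encodes a KChIP that is also known as the calcium-regulated repressor DREAM. It averaged 24.2 ± 0.70 CPM in type IB and 26.8 ± 2.02 CPM in type IC, against 26.6 ± 2.15 CPM in type IA. No pair of type I subtypes passed the test, with log2 differences between -0.15 and 0.016. Kcnip4, on chromosome 5 (chr5:48389502-49524907, minus strand), encodes a KChIP with splice forms that slow inactivation, and it averaged 19.8 ± 3.41 CPM in type IB and 22.7 ± 4.42 CPM in type IC, against 24.8 ± 7.08 CPM in type IA. It was lower in type IB than in type IA (-0.33 ± 0.11; adjusted p = 0.0271), and the call was lost without mouse 3 (-0.18; 0.453), in which type IA stood at 34.7 CPM. DESeq2 (-0.31; 0.18), the fit with no mouse block (-0.33; 0.462) and thinned cells (-0.32; 0.25) gave no call for this difference either.

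The DPP-like genes diverged between type IB and the other type I subtypes. Dpp10, on chromosome 1 (chr1:123321471-124045559, minus strand), had 4.91, 5.1, 6.13 and 5.22 CPM in type IB and 0.979, 0.782, 0.373 and 1.12 CPM in type IC, against 0.289, 0.591, 0.377 and 1.04 CPM in type IA. Every type IB mouse lay far above every type IC and type IA mouse, and type IC and type IA overlapped. Dpp10 was 9.43-fold higher in type IB than in type IA (log2 difference 3.24 ± 0.33; adjusted p = 3e-11) and 6.7-fold higher than in type IC (2.75 ± 0.30; 5.84e-10). With rebuilt labels, which again start from the authors' labels, these log2 differences were smaller but still called, at 2.097 against type IA and 1.73 against type IC. Type IC and type IA were not told apart (0.49 ± 0.48; 0.482), on 23 UMIs in type IC and 16 UMIs in type IA.

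Dpp6, on chromosome 5 (chr5:26817203-27727505, plus strand), was the lower where Dpp10 was the higher. It stood at 26.4, 25.7, 20.9 and 21.7 CPM in type IB and at 44.8, 38.6, 34.3 and 32.4 CPM in type IC, against 37.5, 33.2, 42.5 and 37.5 CPM in type IA. All 4 type IB mice lay below all mice of both other subtypes, and type IC and type IA overlapped. Dpp6 was lower in type IB than in type IA (log2 difference -0.67 ± 0.092; adjusted p = 1.46e-07) and lower than in type IC (-0.65 ± 0.092; 2.95e-07). For type IC minus type IA the difference was -0.012 ± 0.079 (0.936).

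**Figure D3:**
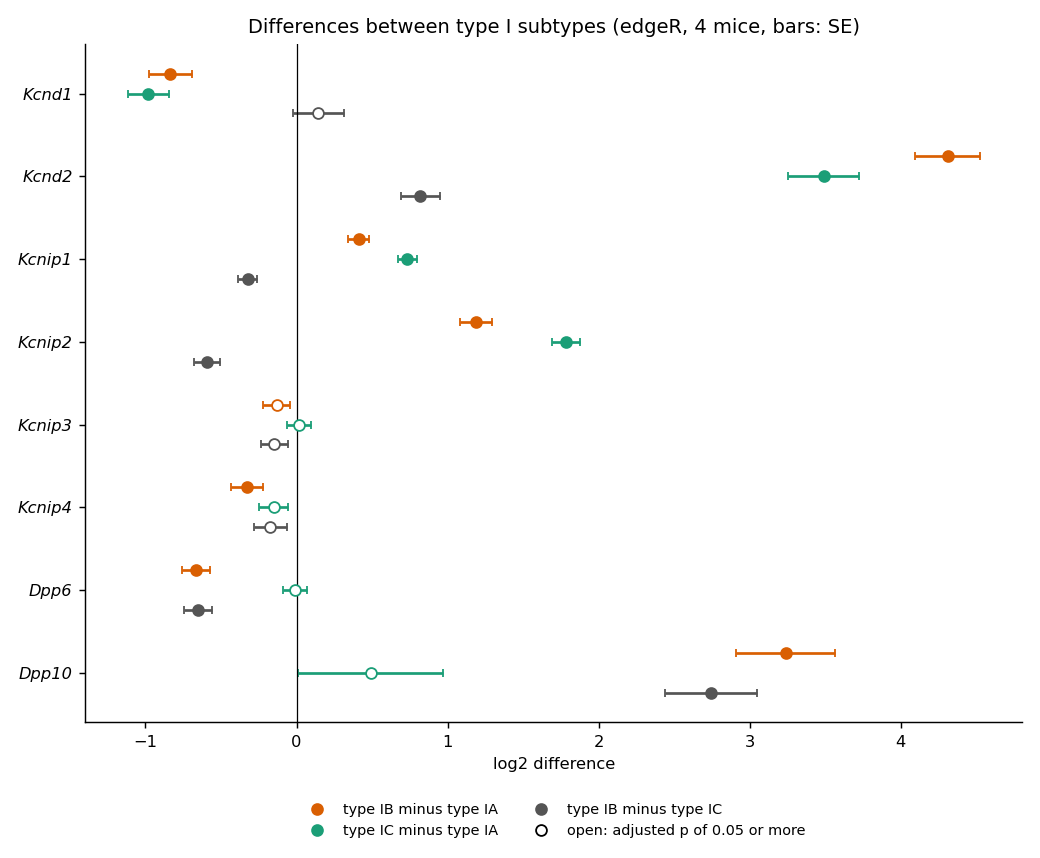
Log2 differences with their SE (horizontal axis) of the 8 tested genes (vertical axis) for type IB minus type IA, type IC minus type IA and type IB minus type IC, from edgeR on 4 mice. Filled symbols have an adjusted p under 0.05; Kcnd2 and Dpp10 lie farthest right at 4.31 and 3.24 for type IB minus type IA, and Kcnd1 lies left of 0 against type IA.

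In single cells the pore transcripts were sparse, so shares of cells with a UMI were compared after each cell was thinned to 4215 UMIs. After thinning, a Kcnd2 UMI was found in 5.45% ± 1.41 of type IB cells and 3.04% ± 1.304 of type IC cells, against 0.138% ± 0.102 of type IA cells (means over mice). The type IA share rests on 3 of 2179 cells. For Kcnip2 the shares were 14.6% ± 4.55 in type IB and 23.5% ± 3.66 in type IC, against 6.64% ± 1.603 in type IA. A Kcnd1 UMI was found in 3.04% ± 0.538 of type IB cells and 2.94% ± 0.641 of type IC cells, against 5.1% ± 0.944 of type IA cells. These orders are those of the CPM levels. Free RNA was present in every population, with a UMI of the red cell gene Hbb-bs in 77.1% to 79% of thinned cells of each, and no non-neuronal cells are annotated from which a background for the channel genes could be read.

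Whether Kcnd2 and its partners were caught in the same cells could be described but not tested, since cells are not replicates. In type IB, 231 of 270 cells with a Kcnd2 UMI also had a KChIP UMI, against 1081 of 1355 cells without one, at median depths of 14628 and 13162 UMIs per cell. A Dpp10 UMI was found in 16 of those 270 cells, against 92 of the 1355. In type IC, a KChIP UMI was found in 201 of 227 cells with a Kcnd2 UMI, against 1615 of 1877 cells without. Thinned to 4215 UMIs, a KChIP UMI was found in 32 of 83 type IB cells with a Kcnd2 UMI, against 718 of 1444 without. The direction thus differed between all UMIs and thinned cells, and no association is read from these sparse counts.

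Type II neurons had less Kcnip1 and Kcnip3 than the type I class, while their Kcnip2, Kcnip4 and Dpp6 differences depended on which cells or mice were counted. Against the mean of the 3 type I subtypes, Kcnip1, Kcnip2 and Kcnip3 were lower and Dpp6 higher, which makes 1 of 8 tested members higher and 3 lower, where 11.9% of all genes were higher and 11.5% lower. The median over the 8 members was 0.087, against -0.054 over all genes. Of the 95 type II cells 58 had a UMI of Prph, the peripherin gene by which type II neurons are recognised, and 37 had none, so the difference is also given for the cells with Prph.

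Kcnip1 stood at 18.3, 30.4, 46.1 and 9.09 CPM in type II, below every type I subtype of the same mouse. The log2 difference from the type I mean was -1.595 ± 0.24 (adjusted p = 7.51e-07). Without the cells that lack Prph it was -3.07 ± 0.41 (5.21e-09), on 6 type II UMIs. Of its 34 UMIs in type II, 13 came from 1 cell of mouse 3, and without that mouse the difference was -2.203. With rebuilt labels it was -2.94. Kcnip3 had 16.5, 0, 5.12 and 4.54 CPM in type II, again below every type I sum, and its log2 difference was -1.56 ± 0.34 (0.000373) on 12 UMIs. It was -2.74 without mouse 1, which held 9 of the 12 UMIs. With thinned cells it was -2.51, where 2 of 90 type II cells had a Kcnip3 UMI. In the cells with Prph it was -2.52 ± 0.58, on 3 UMIs. The calls for Kcnip1 and Kcnip3 held under every alternative in which the genes could be tested, though on few type II UMIs.

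Kcnip2 had 16.5, 0, 23.1 and 31.8 CPM in type II, values that overlapped type IA and type IB. Its difference from the type I mean was -0.89 ± 0.33 (adjusted p = 0.0457). The call was lost in 7 of 14 alternatives, among them the fit with no mouse block (-0.999; 0.129) and those without mouse 1 (-0.84; 0.132) or without mouse 2 (-0.63; 0.165). In cells with Prph the difference was -2.55 ± 0.62 (0.00076) on 4 UMIs. These UMIs all came from a single mouse, and the level there was 6.27 ± 12.5 CPM (mean ± SD over the 4 mice).

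Dpp6 had 80.5, 30.4, 51.2 and 68.2 CPM in type II, against a mean of 23.7 CPM in type IB, 37.5 CPM in type IC and 37.6 CPM in type IA. Mouse 2 was the exception, with 4 UMIs and a level below its own type IC and type IA sums. The difference from the type I mean was 0.903 ± 0.198 (adjusted p = 0.000357). It was not called without mouse 1 (0.67; 0.0662) or with thinned cells (0.15; 0.859), and it changed sign in the cells with Prph (-0.96 ± 0.41; 0.0735). Those cells held 11 Dpp6 UMIs among 601917 UMIs (18.3 CPM), while the type II cells lacking Prph held 72 among 686881 (105 CPM). The 37 cells lacking Prph held more UMIs in sum than the 58 with it, so they were deeper per cell. Without cells that had 3 or more UMIs of the satellite glia gene Fabp7, of which type II held 38, the difference was 1.18 ± 0.21 (3.1e-05). Beyond that, the part of the glial RNA in the type II values was not tested.

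Kcnip4 showed the same dependence on the cells. Its level in type II was 36.6, 30.4, 28.2 and 0 CPM, and the difference from the type I mean was 0.15 ± 0.28 (adjusted p = 0.77) in all type II cells and -1.604 ± 0.56 (0.0219) in those with Prph. It was also negative with rebuilt labels (-1.35; 0.0149) and, without a call, with thinned cells (-0.60) and without mouse 1 (-0.29). The cells with Prph held 5 Kcnip4 UMIs (8.31 CPM) and the others 30 (43.7 CPM).

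Pore transcripts in type II were too few to rank with precision. Kcnd1 averaged 14.8 ± 7.57 CPM on 19 UMIs, with no call against the type I mean (log2 difference 0.71 ± 0.38; adjusted p = 0.184; 0.82 ± 0.52 in the cells with Prph). Kcnd2 had 6 UMIs in 6 cells, at 1.83, 7.59, 5.12 and 9.09 CPM, above type IA in each mouse (2.63 ± 0.76; 0.0072) and below type IB in each mouse (-1.68 ± 0.47; 0.00533). Against the type I mean its difference was 0.026 ± 0.39 (0.975), and -0.61 ± 0.97 in the cells with Prph, on 2 UMIs. Dpp10 had 5 UMIs, all in mice 3 and 4, at 7.68 and 9.09 CPM, and 4 of them lay in cells with Prph. Its difference from the type I mean was 1.49 ± 0.802 (0.188), and 2.12 ± 0.93 (0.0769) in those cells. The Kcnd2 share of pore UMIs was 26.2% ± 18.5 in type II, against a type I mean of 41.3% (exact two-sided sign-flip permutation p = 0.25, n = 4 mice).

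**Figure D4:**
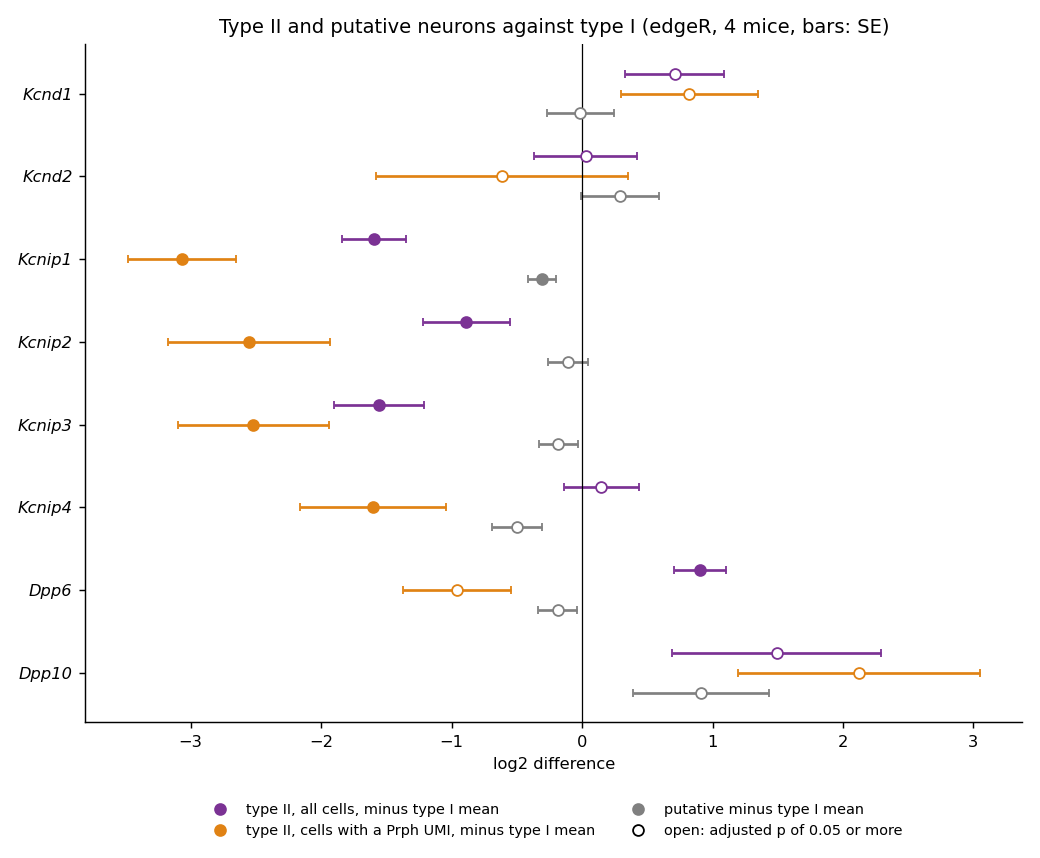
Log2 differences with their SE (horizontal axis) of the 8 tested genes (vertical axis) for type II minus the type I mean, with all type II cells and with those that had a Prph UMI, and for putative neurons minus the type I mean (edgeR, 4 mice). Filled symbols have an adjusted p under 0.05; Dpp6 lies at 0.903 with all type II cells and at -0.96 with the Prph cells, and the 3 values of Kcnip1 lie left of 0.

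In putative neurons Kcnip1 was slightly lower than in the type I class, and Kcnd2 stood between type IB and type IA. Against the type I mean, 0 of 8 tested members were higher and 1, Kcnip1, was lower, where 14.2% of all genes were higher and 9.13% lower by edgeR; DESeq2 called 0 higher and 0 lower. The median of the 8 members was -0.14, against -0.0094 over all genes. Kcnip1 stood at 58.5, 69.3, 66.9 and 53.5 CPM in putative neurons, and its difference from the type I mean was -0.31 ± 0.11 (adjusted p = 0.0288), lower in 4 of 4 mice. That call was lost in 9 of 14 alternatives, among them those without mouse 1, mouse 2 or mouse 4 and the fit with no mouse block (-0.30; 0.115), whereas rebuilt labels gave a larger difference (-1.29; 1.63e-10).

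Against single subtypes, Kcnd2 in putative neurons (5.57, 3.12, 4.71 and 10.7 CPM) lay above type IA in every mouse (log2 difference 2.89 ± 0.43; adjusted p = 5.29e-07) and below type IB in every mouse (-1.42 ± 0.26; 3.57e-05). Dpp10 likewise was higher than in type IA (2.16 ± 0.64; 0.00803) on 11 UMIs. Kcnip2 was higher than in type IA (0.89 ± 0.18; 0.000129) and lower than in type IC (-0.896 ± 0.15; 4.62e-06). Kcnip1 was lower than in type IC (-0.66 ± 0.11; 4.81e-06) and type IB (-0.34 ± 0.12; 0.0264). Kcnip4 was lower than in type IA (-0.66 ± 0.20; 0.00923). Dpp6 was lower than in type IA (-0.41 ± 0.15; 0.037) and type IC (-0.40 ± 0.15; 0.0492). The Kcnd2 share of pore UMIs was 41% ± 18.4 in putative neurons, against a type I mean of 41.3% (exact two-sided sign-flip permutation p = 1, n = 4 mice). Putative cells were shallower, with a median of 5647 UMIs per cell (mean over mice) against 13166 to 15802 in the type I subtypes, and they held markers of all 3 subtypes, at 47.7 CPM for type IB, 1144 CPM for type IC and 3661 CPM for type IA. The part of depth, of mixed subtypes and of glial RNA in these values was not tested.

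Set in order of level over the 5 populations, neighbouring levels were often not told apart. For Kcnd2 the order was type IB, type IC, putative, type II and type IA, and putative neurons differed neither from type IC (adjusted p = 0.126) nor from type II (0.859). For Kcnd1 it was type II, type IA, putative, type IB and type IC, with no neighbouring pair past the test, although putative neurons were close to it against type IA (-0.62 ± 0.25; 0.0549). For Dpp10 it was type IB, type II, putative, type IC and type IA, and putative neurons lay above type IC (1.66 ± 0.603; 0.0377). Dpp6 ran from type II through type IA, type IC and putative neurons to type IB, and type IA and type IC (0.936) and putative neurons and type IB (0.31) were not told apart. For Kcnip4, whose order was type IA, type II, type IC, type IB and putative, no neighbouring pair passed the test.

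Other genes tied to A-type currents were taken from lists of known channels and regulators, and differences named as higher or lower passed the same edgeR threshold. Among genes for other A-type channels and their beta subunits, Kcnab1 was higher in type IB than in type IA (log2 difference 0.43 ± 0.082) and in type IC than in type IA (0.49 ± 0.076), and Kcnab2 was higher in type IC than in type IA (0.62 ± 0.07). In type II, Kcnc4, which encodes a fast-inactivating channel of another family, was higher than the type I mean by 7.47 ± 0.35, while Kcnab3 (-1.62 ± 0.15) and Kcnab2 (-1.06 ± 0.11) were lower. The calcium sensor gene Ncs1, whose protein can bind Kv4 pores, was lower in type II (-0.69 ± 0.11).

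Among 10 tested genes whose proteins anchor or phosphorylate Kv4 channels, 5 were higher and 1 lower in type IC than in type IA, beside 16% and 16.3% of all genes. The kinase gene Camk2b (0.83 ± 0.072), the scaffold gene Dlg1 (0.77 ± 0.13) and the kinase gene Camk2g (0.73 ± 0.051) differed most. In type IB 3 of the 10 were higher than in type IA, led by Dlg1 (0.68 ± 0.15), and 0 lower, beside 8.19% and 7.4% of all genes. The kinase gene Mapk3 was higher in type II than in the type I mean (1.42 ± 0.103). Of 6 genes for dipeptidyl peptidases that are active enzymes, 0 were higher or lower in type IB than in type IA, whereas Fap (2.26 ± 0.39) and Dpp4 (2.03 ± 0.41) were higher in putative neurons than in the type I mean. The 4 fibroblast markers, all with UMIs in every population, summed to between 215 and 501 CPM in putative neurons, against 82.2 to 129 CPM in the type I subtypes, and their part in these values was not tested.

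The genes whose pattern over the 20 sums was most like that of Kcnd2, after each mouse's own mean was removed, were Pls3 (Pearson r = 0.896), Ntng1 (0.878), Galnt14 (0.859), Slc17a6 (0.843) and Prr7 (0.841), out of 11939 genes. Among the members themselves, Dpp10 had r = 0.55 with Kcnd2 and Kcnd1 had r = -0.61. For Kcnd1 the most alike were Nhsl1 (0.851), Fgfbp3 (0.849), Sirt2 (0.837), Fam63b (0.825) and Pdcd10 (0.816). These values describe 20 points that share 4 libraries and differ in depth, and they carry no test.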

How the data were processed

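Spiral ganglion neurons of 4 mice were profiled by 3′ droplet sequencing. The authors deposited raw UMI counts per gene and cell, 1 table per mouse, and a cell annotation with class and subtype. The submitters' processing notes name Cell Ranger 2.0.1, Seurat 1.4 and the genome build mm10; cell filters, gene filters and label assignment were not given in the sources used here. Combined and a normalized tables were not used.

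UMI counts were summed per mouse and population (20 sums of 15 to 827 cells; a mouse is the replicate) and entered a single edgeR 4.0.16 fit (R 4.3.3): filterByExpr by population (13005 genes), TMM scaling, population plus mouse, quasi-likelihood test, 12 residual degrees of freedom. Benjamini-Hochberg adjustment ran over all genes of a comparison, with a threshold of 0.05. The p-values are two-sided and rest on the spread left over the 20 sums once population and mouse are fitted. SEs come from the estimate and its F statistic. The block is the animal, since the 5 sums of a mouse come from it; deviations of same-mouse sums correlated at 0.013 to 0.57 (median 0.17), against a median of -0.074 between mice. Levels are CPM of all UMIs. Named genes are all 9 members, the 5 genes most like each tested pore gene (at least 100 UMIs, no Gm or Rik models), and up to 4 called genes per further list, of which some are not reported here. The members and lists were chosen with earlier results of these data known. Alternatives were DESeq2 1.42.0, RLE scaling, no mouse block, no or a stricter filter (1 CPM in 8 sums), each mouse left out, cells thinned to 4215 UMIs (the depth at percentile 10; 671 shallower cells left out), 15 cells per sum, no cells with 3 or more Fabp7 UMIs, no type II cells lacking Prph, and population labels rebuilt from the other mice without the members. The rebuilt labels gave each cell the population whose mean profile, over the authors' labels in the other mice, it correlated with most. Fits were tested on simulated data. No clustering or doublet calling was done.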

Additional observations from a re-analysis of the deposited data

Results flagged for a closer look

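The single Kcnd3 UMI of putative neurons, in mouse 3, gave 0.943 CPM there, while the other 3 mice stood at 0; that gap set the sample apart from its group. It was 1 of 45 groups of 4 mice examined, and chance sets apart about 1 group in 20.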

How the results depend on the processing

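Of the 40 member differences tested, 21 were called, counting both directions. Of all 13005 genes, 5.47% to 16.3% were called in 1 direction of a comparison, so these shares do not compare directly with the 21. Calls over all genes in both directions are given at the end of this section, also under several of the alternatives. RLE scaling and DESeq2 each lost 2 of the 21 member calls, and the stricter filter lost 0. The median of all genes shifted by at most 0.056 log2 under another scaling. With 15 cells in every sum, just 3 members could be tested, and 0 were called higher or lower in any pair of type I subtypes, 1 (Kcnip1) was lower and 1 (Dpp6) higher in type II, and 0 were lower in putative neurons. With thinned cells, 1 member was higher in type IB than in type IC (Dpp10 was not tested), 0 were higher in type II and 0 lower in putative neurons. With no replicate block, 1 was lower in type IB than in type IC and 0 lower in putative neurons. With no filter, 2 were higher in type II (the added one was Kcnd3, at 3.67) and 2 lower in putative neurons. The 12 Kcnd3 UMIs of type II all lay in cells lacking Prph, and 11 of them in mouse 1. Without type II cells lacking Prph, 0 were higher in type II and 2 lower in putative neurons. With rebuilt labels, 2 were lower in type IC than in type IA, 0 higher in type II and 2 lower in putative neurons. DESeq2, RLE scaling and leaving out cells with Fabp7 each gave 0 lower in putative neurons. Leaving out each mouse gave 0 to 1 members higher in type II and 0 to 2 lower in putative neurons. Without cells lacking Prph and with rebuilt labels, type II minus the type I mean turned negative for Dpp6 (-0.96 and -0.36), Kcnip4 (-1.604 and -1.35) and Kcnd2 (-0.61 and -0.97, from 0.026 with no call); Kcnip4 and Kcnd2 did so under other alternatives too. The rebuilt labels matched the authors' for 77% of all cells, but for 51.5% of putative and 72.6% of type II cells. The Kcnd2 share in putative neurons, -0.38 points from the type I mean, became 3.87 without mouse 2, 4.28 without mouse 3 and 4.17 with thinned cells, and leaving out each mouse gave -5.62 to 4.28. For these changes the cause was not tested.

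Shares of cells with a UMI, unthinned, were 16.8%, 10.8% and 0.865% for Kcnd2, 37.5%, 53.3% and 17.9% for Kcnip2, and 9.31%, 8.94% and 14.9% for Kcnd1 (type IB, type IC and type IA). Calls over all genes were 2027 for type IB minus type IA, 4200 for type IC minus type IA, 1540 for type IB minus type IC, 3040 for type II and 3031 for putative neurons. They fell to 901, 2358 and 595 for the 3 type I pairs with no replicate block, to 31, 95, 46, 1179 and 183 with 15 cells per sum, and to 1095, 2580, 859, 1971 and 989 with thinned cells, in the order above. Rebuilt labels gave 5185 for putative neurons and leaving out mouse 2 gave 1899; leaving out mouse 3 gave 1334 and 945 for type IB minus type IA and minus type IC, and leaving out cells with Fabp7 gave 1896 for type II.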
